A study of Drosophila melanogaster with 3 samples.

Results

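Small nucleolar RNA (snoRNA) genes were taken as all genes of that biotype on the main chromosomes of the Drosophila melanogaster dm6 build, which gave 269 of 18164 genes. The remaining 17895 genes were the comparison. Each snoRNA gene was joined to the gene that spans it on the same strand, called its host. In 247 cases a host was found, and 22 snoRNA genes had none. The hosts were 92 different genes, 28 of them ribosomal protein genes.

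snoRNAs guide chemical changes of ribosomal and spliceosomal RNA. C/D snoRNAs carry a C box and a D box and direct 2'-O-methylation, and H/ACA snoRNAs carry an H box and a 3'-terminal ACA and direct pseudouridylation. In flies most are cut out of the introns of host transcripts, so that the start of such a gene is a processed RNA end and the promoter that drives it is that of the host. A few, such as U3, have transcription units of their own.

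The binding data were peak lists from chromatin immunoprecipitation and sequencing (ChIP-seq) with an anti-GFP antibody. The single group was topi-eGFP white prepupae, whole animals of both sexes pooled, from a transgenic line with stable expression of topi carrying GFP at its C terminus; 3 biological replicates had a list each. Topi (matotopetli) is a zinc-finger protein known from the testis meiotic arrest complex. The promoter that drives the transgene and the number of animals per replicate were not used here, all libraries name 1 donor line, and the age is labelled unknown. No library was from animals without the tag, so binding by topi and signal from other sources cannot be told apart, nor, in whole animals, the cells that carry a peak. Relaxed lists of 30000 peaks came from each replicate and from their pool. Such a list by its label includes background regions. The list that passed the authors' irreproducible discovery rate (IDR) filter had 8424 peaks. The signal value of a peak is the authors' enrichment score, which is not scaled between libraries, and rank 1 is the highest score of a list. Read depth is unknown from such lists. A gene was counted as occupied when a summit lay within 500 bp of its start or, for hosts, of an annotated transcription start site (TSS).

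Names assigned 119 snoRNA genes to C/D and 120 to H/ACA, while 30 names gave no class. The letters of the genes went with these names. TGATGA followed by CTGA, the C and D box letters, was found in 87 of 119 C/D genes, in 1 of 120 H/ACA genes and in 2 of 30 genes without a class. ACA within 6 bases of the 3' end was found in 112 of 120 H/ACA genes, 8 of 119 C/D genes and 3 of 30 without a class. The H box letters ANANNA did not separate the classes, with 118 of 120 H/ACA and 106 of 119 C/D genes. C/D genes had a median length of 80 bases and H/ACA genes one of 140. The genes below are the C/D and H/ACA members with the strongest IDR summits near their starts on arms 2L, 3L, 3R and X. Capitals mark the first TGATGA and the last CTGA in the 3 C/D genes, and the ACA near the 3' end in the 2 H/ACA genes. They lie at chr3L:8601473-8601552 (plus strand), chr3L:3222475-3222541 (minus strand), chr3R:11222405-11222489 (plus strand), chr3R:9778398-9778537 (plus strand) and chrX:6743675-6743815 (minus strand) in dm6, in introns of RpL14, RpL28, RpL3, RpS29 and RpL17 in that order.
snoRNA:U49:66Da: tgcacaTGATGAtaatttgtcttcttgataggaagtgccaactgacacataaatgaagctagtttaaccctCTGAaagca
snoRNA:Or-CD11a: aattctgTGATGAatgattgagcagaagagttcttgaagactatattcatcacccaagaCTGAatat
snoRNA:Me18S-C1096: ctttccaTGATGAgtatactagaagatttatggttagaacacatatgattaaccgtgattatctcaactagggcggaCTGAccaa
snoRNA:Psi18S-1275: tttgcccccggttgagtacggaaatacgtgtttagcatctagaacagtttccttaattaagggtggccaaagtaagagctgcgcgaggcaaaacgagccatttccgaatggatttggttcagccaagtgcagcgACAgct
snoRNA:Psi28S-1232: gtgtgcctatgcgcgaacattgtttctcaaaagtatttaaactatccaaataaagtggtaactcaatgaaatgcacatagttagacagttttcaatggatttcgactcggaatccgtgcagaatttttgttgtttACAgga

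Most snoRNA genes lay in introns of their hosts. Of the 269, 229 were in an intron of every transcript that spans them, and 18 overlapped an annotated exon. Of the 229, 53 were in the first intron, 57 in the second and 36 in the third. The distance from a hosted snoRNA start to the closest host TSS was 1433 bp at the median, with 753 and 2564 bp as the quartiles, and 35 of 247 starts lay within 500 bp of such a TSS. C/D genes lay at a median of 1201 bp and H/ACA genes at 1625 bp.

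Starts of snoRNA genes carried IDR summits less often than starts of other genes. An IDR summit lay within 500 bp of 23 of 269 snoRNA gene starts (8.55%), against 19.4% of the other genes. The share of other starts differed by class. It was 21.8% for protein-coding genes, 21.9% for snRNA genes, 16.2% for tRNA genes and 11.1% for ncRNA genes. Pseudogenes had 4.48%, below the snoRNA genes, and rRNA genes 0 of 99. In the pooled relaxed list 64 of 269 snoRNA gene starts (23.8%) had a summit, against 37.9% of the other genes. With the 8424 strongest peaks of each library, the share of snoRNA starts was 5.2%, 10.4% and 8.18% in replicates 1, 2 and 3, against 17.3%, 21.8% and 20.2% of other gene starts. The difference was -11.8 ± 0.413 percentage points (SD, n = 3 replicates), lower in 3 of 3, with a two-sided exact sign-flip permutation p of 0.25, the smallest that 3 replicates allow. The gap depended on the window: within 1000 bp, 24.2% of snoRNA starts and 24.4% of other starts had an IDR summit, and within 200 bp the shares were 2.6% and 13.2%. With the strongest peaks of each replicate within 1000 bp, snoRNA starts had 18.6%, 27.9% and 23.0%, against 22.3%, 26.9% and 25.4% of other starts, so replicate 2 was not lower there.

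**Figure D1:**
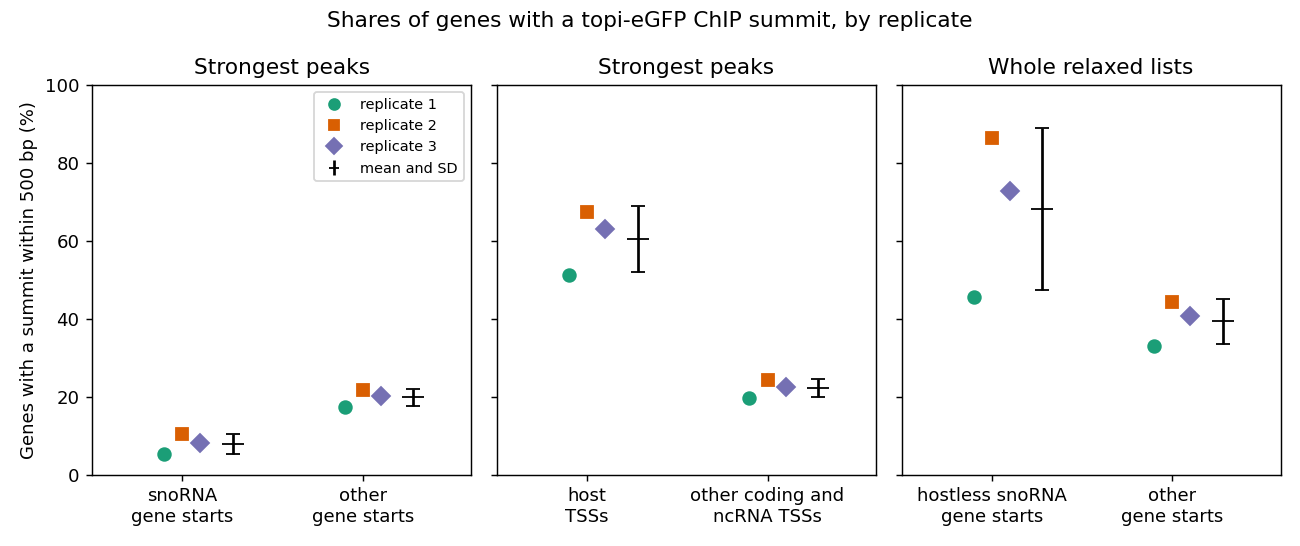
Share of genes with a summit within 500 bp (percent, vertical axis) in each replicate (symbols), with the mean and SD of the 3 beside them. Left, snoRNA gene starts (5.2 to 10.4%) lie below other gene starts (17.3 to 21.8%); middle, host TSSs (51.1 to 67.4%) lie above TSSs of other coding and ncRNA genes (19.7 to 24.2%), both with the strongest 8424 peaks of each replicate; right, starts of snoRNA genes without a host (45.5 to 86.4%) lie above other gene starts (33.1 to 44.3%) in the whole relaxed lists.

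Where a snoRNA start was occupied, the summit was in most cases at the promoter of the host. Of the 23 occupied snoRNA genes, 18 had a host, and in 16 of these 18 the summit was also within 500 bp of a host TSS. The share fell steeply with distance from the host TSS. Of hosted snoRNA genes that start within 250 bp of a host TSS, 10 of 17 (58.8%) had an IDR summit, and 5 of 18 (27.8%) did at 251 to 500 bp. At 501 to 1000 bp the count was 1 of 51 (1.96%), at 1001 to 2000 bp 0 of 75, at 2001 to 5000 bp 2 of 63 (3.17%) and beyond 5000 bp 0 of 23. Beyond 500 bp, 124 of 212 snoRNA genes had a host with an IDR summit at a TSS, and 3 of 212 had one near their own start. Summits lay mostly upstream of the snoRNA gene, with a median position 306 bp before the start. Since host TSS and snoRNA start then share 1 window, and the labelled fragment sizes run from 200 to 800 bp, a summit at such a snoRNA start cannot be told apart from one at the host promoter.

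**Figure D2:**
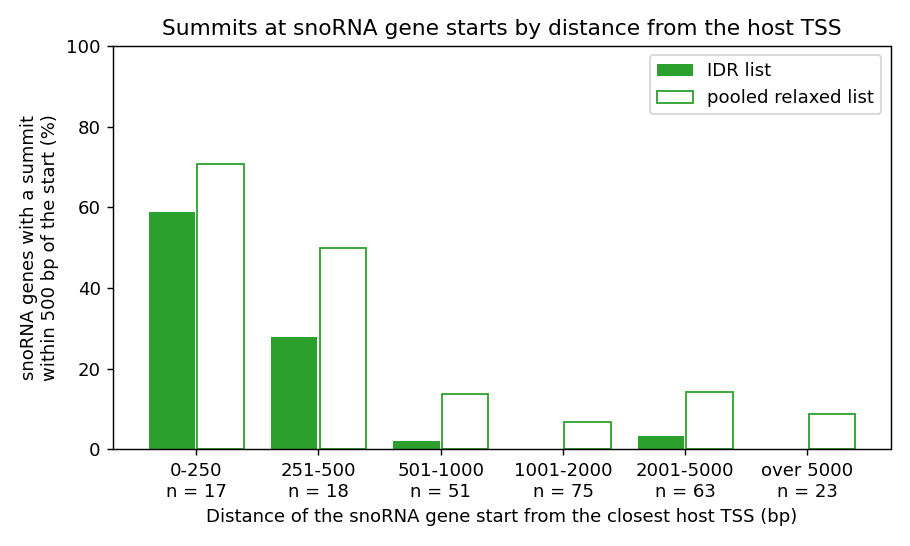
Share of hosted snoRNA genes with a summit within 500 bp of the start (percent, vertical axis) by distance of the start from the closest host TSS (bp), with the number of genes under each bin. Filled bars are the IDR list and open bars the pooled relaxed list; the IDR share is 58.8% within 250 bp and 1.96% at 501 to 1000 bp.

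The arrangement is shown for the 4 snoRNA genes on arms 2L, 3L, 3R and X whose gene, host TSS and IDR summit fit in 300 bases. Each line runs along the host from the summit or the TSS, whichever comes first, to the end of the snoRNA gene, which is in capitals. In the Uhg2 line (chr2L:9894795-9895071 (minus strand)) the summit is at base 1 and the TSS at base 69. In the RpL10Ab line (chr3L:11822828-11823124 (plus strand)) the summit is at base 1 and the TSS at base 24. In the RpL15 line (chr3L:27267256-27267450 (plus strand)) the TSS is at base 1 and the summit at base 64, and in the RpS6 line (chrX:7901062-7901331 (minus strand)) they are at bases 1 and 25.
Uhg2 to snoRNA:Me18S-A1576: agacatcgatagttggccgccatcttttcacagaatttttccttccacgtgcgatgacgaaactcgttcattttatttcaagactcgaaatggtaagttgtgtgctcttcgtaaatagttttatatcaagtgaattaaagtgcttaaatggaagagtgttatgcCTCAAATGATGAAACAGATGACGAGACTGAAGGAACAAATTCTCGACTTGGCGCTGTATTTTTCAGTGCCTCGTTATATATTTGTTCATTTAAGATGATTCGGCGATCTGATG
RpL10Ab to snoRNA:Psi18S-920: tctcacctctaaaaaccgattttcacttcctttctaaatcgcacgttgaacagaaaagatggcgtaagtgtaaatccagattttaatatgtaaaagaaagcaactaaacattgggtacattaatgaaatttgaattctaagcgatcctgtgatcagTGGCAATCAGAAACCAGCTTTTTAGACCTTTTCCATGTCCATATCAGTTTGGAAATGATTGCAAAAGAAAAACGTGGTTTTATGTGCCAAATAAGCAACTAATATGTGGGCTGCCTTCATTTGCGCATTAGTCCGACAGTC
RpL15 to snoRNA:Me18S-G1358c: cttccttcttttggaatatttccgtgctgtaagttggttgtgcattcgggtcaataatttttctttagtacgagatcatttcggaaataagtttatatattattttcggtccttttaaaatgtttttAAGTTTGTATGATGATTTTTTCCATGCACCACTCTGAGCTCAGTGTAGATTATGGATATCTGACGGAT
RpS6 to snoRNA:Or-aca2: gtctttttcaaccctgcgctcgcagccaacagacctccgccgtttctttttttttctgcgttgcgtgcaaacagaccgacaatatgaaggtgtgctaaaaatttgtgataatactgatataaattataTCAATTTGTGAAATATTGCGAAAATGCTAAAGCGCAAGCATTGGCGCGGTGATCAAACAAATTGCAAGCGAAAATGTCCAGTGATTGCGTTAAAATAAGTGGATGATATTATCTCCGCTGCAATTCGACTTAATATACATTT

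Ribosomal protein hosts held 11 of the 23 occupied snoRNA genes, or 11 of the 71 snoRNA genes in such hosts (15.5%). snoRNA:U49:66Da in RpL14 had the highest IDR signal, 578 at rank 779, from a summit exactly 500 bp before its start. Its replicate signals were none, 169 and 249 in replicates 1, 2 and 3. At the RpL14 TSS itself all 3 replicates listed a summit, with 161, 169 and 249, and that of replicate 1 lay more than 500 bp from the snoRNA start. snoRNA:Or-CD11a in RpL28 followed with an IDR signal of 468 and replicate signals of 148, 111 and 197. snoRNA:Me18S-C1096 in RpL3 had 345, with 50.2, 159.7 and 135. RpL14, RpL28 and RpL3 encode proteins of the large ribosomal subunit. snoRNA:Me28S-A774b in RpS12 had 201, with 87.7, 63.1 and 70.3 in the replicates, and was listed in all 3. snoRNA:Psi28S-1232 in RpL17 had 216, with 31.4, 76.8 and 99.9. The value of replicate 1 is that of another summit, and its summit closest to the one of the pool had 61.4, at 520 bp from the start. RpL17 has several TSSs, and a second member, snoRNA:Psi28S-1060, lay by another of its summits with an IDR signal of 126. snoRNA:Psi18S-1275 in RpS29, a small-subunit protein gene, had 317, with no summit in replicate 1 and 111 and 140.2 in replicates 2 and 3. RpS29 is the neighbour of topi itself, and its summit lay 140 bp past the annotated end of topi, the gene whose fusion is expressed from a transgene. The part that an added copy of this locus could have in that peak was not tested. The other 4 members, in RpL10Ab, RpL15, RpS20 and RpS6, had IDR signals of 129 to 178.

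The 10 non-coding hosts held 5 occupied snoRNA genes of 55 (9.09%). All 5 were in the 7 hosts named Uhg, whose spliced RNAs have no known protein product and which held 48 snoRNA genes (10.4%). snoRNA:Psi28S-2949 and snoRNA:Or-aca5 start 99 and 412 bp from the Uhg4 TSS and share 1 summit 59 bp before it, with an IDR signal of 526 and replicate signals of 109.9, 199 and 218. snoRNA:Me18S-A1576 in Uhg2 had 199, with no summit in replicate 1 and 91.4 and 75.5 in replicates 2 and 3. snoRNA:Me28S-G3081a in Uhg1 had 124, with 42.2, 50.4 and 38.9. The fifth, snoRNA:Or-CD4, is the last member in Uhg5 and lay 404 bp before a summit with an IDR signal of 130.2, which is 3056 bp from the Uhg5 TSS. That summit is past the end of Uhg5, which lies 2897 bp from the TSS. Within 500 bp of the snoRNA:Or-CD4 start, replicate 1 had no summit. Replicates 2 and 3 had 25.1, at rank 13398, and 45.0.

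Other protein-coding hosts held 2 occupied snoRNA genes of 109 (1.83%), and hosts that encode translation proteins other than ribosomal ones held 0 of 12. snoRNA:Psi18S-1086 in Sf3b3, which encodes a splicing factor subunit, had an IDR signal of 103, with no summit in replicate 1 and 24.3 and 45.4 in replicates 2 and 3. The value of replicate 2 is that of another summit, and its summit closest to the one of the pool had 15.8, at rank 20208. snoRNA:hts-a in hts, which encodes the adducin homologue, had 116, with no summit in replicate 1 and 74.7 and 39.3 in replicates 2 and 3. Its summit was 3302 bp from the closest hts TSS and 47 bp from the start of a tRNA gene, tRNA:Val-AAC-2-1. snoRNA:hts-a and snoRNA:Or-CD4 were the hosted members whose IDR summit was not at a host TSS.

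Of the classes, 9 of 119 C/D genes (7.56%) and 10 of 120 H/ACA genes (8.33%) had an IDR summit. Among genes with no class in the name the count was 4 of 30. In the pooled relaxed list, 35 of 119 C/D genes and 20 of 120 H/ACA genes had a summit. The difference between the classes was not tested, since members of 1 host share their promoter. None of the 16 genes named as scaRNAs, which guide changes of spliceosomal RNA in Cajal bodies, had an IDR summit near its start, and 2 had a pooled relaxed one.

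Host genes were occupied more often than other genes. Of 92 hosts, 56 (60.9%) had a TSS with an IDR summit in its window, against 21.6% of the other protein-coding and ncRNA genes. In the pooled relaxed list the counts were 70 of 92 hosts (76.1%), against 39.9% of those genes. With the 8424 strongest peaks of each library, the host share was 51.1%, 67.4% and 63.0% in replicates 1, 2 and 3, against 19.7%, 24.2% and 22.6% of the other genes. The difference was 38.3 ± 6.14 percentage points (SD, n = 3), higher in 3 of 3 replicates, with a two-sided exact sign-flip permutation p of 0.25, again the smallest possible. A gene with several TSSs has more places to be counted, and with the gene start alone, an alternative chosen after the data were seen, the shares were 54.3% of hosts and 19.6% of the other genes. Of the 56 occupied hosts, 42 had a summit among the strongest 8424 in all 3 replicates. The summits lay at a median of 57 bp upstream of the closest TSS, and 49 of 56 were upstream. The median signal at the 56 hosts was 268, against 205 over the strongest such summits of the 3705 other occupied genes.

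Ribosomal protein hosts made up much of this count. Of the 28, 26 had an IDR summit at a TSS (92.9%), against 50 of the 65 ribosomal protein genes that are no hosts (76.9%). Ribosomal protein genes were taken by symbol, which gave 93, and duplicated copies were not set apart. The hosts that encode other translation proteins, kra, pAbp and eEF1alpha1, were occupied in 3 of 3 cases. Of the other 51 protein-coding hosts 23 were occupied (45.1%), and of the 10 non-coding hosts 4 were (40.0%), namely Uhg1, Uhg2, Uhg4 and Uhg8. The unoccupied lncRNA:CR45184 and lncRNA:CR42491 lie on the same strand within Sf3b3 and RpL22, which were both occupied. Without ribosomal protein genes on either side, 30 of 64 hosts (46.9%) had an IDR summit, against 21.4% of 17049 genes. In the replicates these shares were 35.9%, 56.2% and 50% of hosts, against 19.5%, 24.1% and 22.4% of the other genes, a difference of 25.4 ± 8.1 points (SD, n = 3; exact sign-flip permutation p = 0.25).

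The 10 hosts with the highest signals held 1 to 7 snoRNA genes each. Stt3A, which encodes a subunit of the oligosaccharyltransferase, had the strongest summit of any host, with a pooled signal of 1575 at rank 83 and replicate signals of 300.1, 591 and 697. Its summit was 407 bp before the TSS, and its 3 snoRNA genes start 1576 bp or more from the TSS. CG1142 had 1068, with 290.0, 307 and 471 in the replicates, CG12316 had 1033, with 256, 394 and 388, and Msp300 had 1029, with 289, 342 and 396. Msp300 encodes a nesprin, a large protein of the nuclear envelope, and its single snoRNA gene lies 50634 bp from the closest TSS. lola, which encodes a family of BTB zinc-finger factors, had 1029 at rank 236, with 301, 267 and 467. pAbp, the gene of the poly(A)-binding protein, had 583, with 8.57, 250.0 and 238 in replicates 1, 2 and 3. The replicate 1 value is that of another summit, 40 bp before a TSS, at rank 20045. Its peak at the place of the pooled summit, which is 498 bp after a TSS, had a signal of 109 at rank 1220 and a summit 511 bp from the TSS, just outside the window. The 4 that followed were RpL14, Uhg4, RpL28 and RpS20, with pooled signals of 578, 526, 468 and 433. The median was 304 over occupied ribosomal protein hosts, 183 over other protein-coding hosts and 173 over non-coding hosts.

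**Figure D3:**
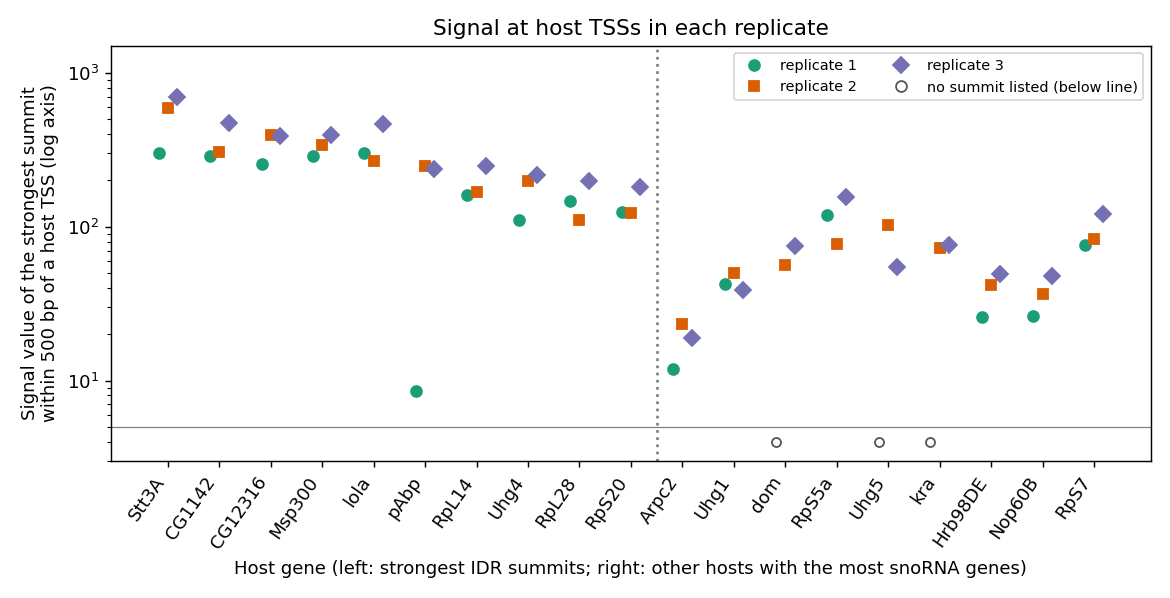
Signal value of the strongest summit within 500 bp of a host TSS (log axis) in each replicate (coloured symbols), for the 10 hosts with the strongest IDR summits on the left and the other hosts with the most snoRNA genes on the right; open symbols under the line mark replicates with no listed summit. Stt3A is highest with 300.1 to 697, pAbp has 8.57 in replicate 1, where its peak of 109 lies just outside the window, and 250.0 and 238 in the others, and dom, Uhg5 and kra have no summit in replicate 1.

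Of the 10 hosts with the most snoRNA genes, 1, Uhg4, was among the 10 strongest, and 4 had no IDR summit at a TSS. Arpc2, which encodes a subunit of the actin-nucleating Arp2/3 complex, holds 17 H/ACA genes and had replicate signals of 11.8, 23.3 and 18.9, at ranks from 13998 to 17530. dom, which encodes a chromatin-remodelling ATPase, holds 15 and had no summit in replicate 1 or the pool, and 56.5 and 74.8 in replicates 2 and 3. Uhg5 holds 11 C/D genes and had no summit in replicate 1, and 102 and 54.6 in replicates 2 and 3. Nop60B, the pseudouridine synthase of H/ACA particles, holds 7 and had 26.4, 36.3 and 47.9. The other 6 were occupied. Uhg1, with 16 C/D genes, had 42.2, 50.4 and 38.9 and an IDR rank of 6332. RpS5a, with 14 H/ACA genes, had 119, 77.1 and 156 and an IDR rank of 1757. RpS7 had 76.3, 83.4 and 121, Uhg4 109.9, 199 and 218, and Hrb98DE, an hnRNP gene, 25.9, 41.5 and 49.4, with 7 snoRNA genes each. kra, a translation regulator with 8 H/ACA genes, had no summit in replicate 1, and 72.7 and 76.4 in replicates 2 and 3. Of these 10 hosts, Uhg1, Uhg4 and Uhg5 had members with an IDR summit near the start, 1, 2 and 1 of them.

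**Figure D4:**
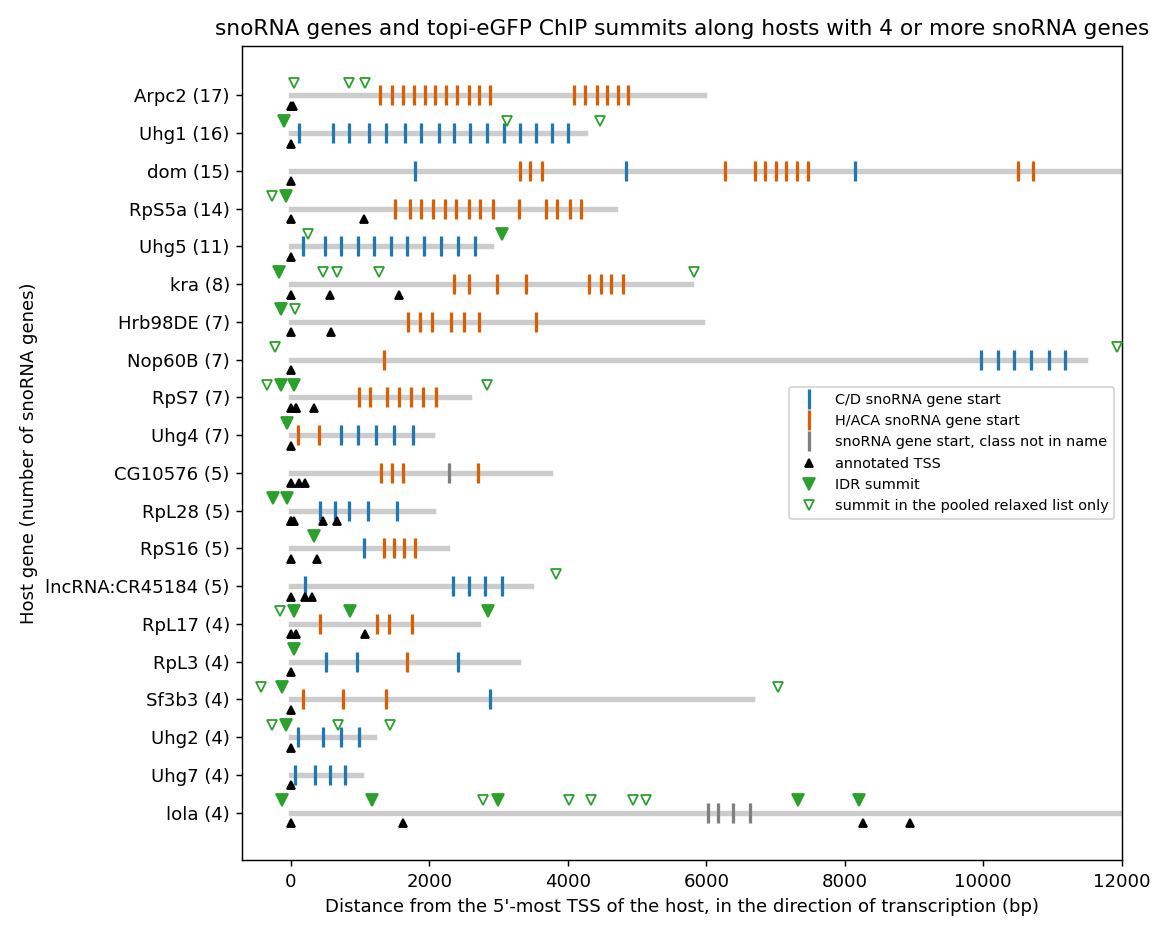
Positions along the 20 hosts with 4 or more snoRNA genes, in bp from the 5'-most TSS in the direction of transcription: snoRNA gene starts (bars coloured by class), annotated TSSs (black triangles), IDR summits (filled green) and summits listed only in the pooled relaxed list (open green); grey lines are host genes, and dom and lola run past the right edge. IDR summits sit by the TSSs of 13 of the 20 hosts, and Arpc2 shows 17 snoRNA genes with no IDR summit.

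By number of snoRNA genes, 28 of 55 hosts with 1 member (50.9%), 15 of 17 with 2 or 3 (88.2%) and 13 of 20 with 4 or more (65.0%) had an IDR summit at a TSS. Ribosomal protein hosts, of which 26 of 28 were occupied, were spread unevenly over these groups and were not set apart. Counted over snoRNA genes, 151 of 247 (61.1%) had a host with an IDR summit at a TSS and 200 of 247 (81.0%) one with a pooled relaxed summit. Of the 36 hosts without an IDR summit, 14 had a pooled relaxed summit and 22 had none. The hosts with 3 or more snoRNA genes, no IDR summit and a pooled relaxed summit were Nop60B, Uhg3, Uhg5 and Arpc2, with pooled signals of 84.9, 83.7, 60.8 and 57.2. lncRNA:CR45184, CG10576 and Uhg7, with 5, 5 and 4 snoRNA genes, were listed with no summit at a TSS in any of the 5 lists. lncRNA:CR45184 lies within Sf3b3 on the same strand, which had an IDR summit at its TSS. Its 5 snoRNA genes were counted with the shorter gene. RpL36A, a ribosomal protein host without an IDR summit, had replicate signals of 49.8, 47.4 and 75.7, all among the strongest 8424 of their replicates and within 28 bp of a TSS, while the closest summit of the pooled relaxed list was 2044 bp away. RpL36A was the only host of 43 with such a summit in all 3 replicates that the IDR list lacked (2.33%), against 70 of 2488 other genes (2.81%). The cause was not tested.

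snoRNA genes without a host, whose starts are not inside another transcript unit on their strand, had listed summits more often than hosted ones in every replicate. In the pooled relaxed list 20 of 22 had a summit within 500 bp of the start (90.9%), against 44 of 247 hosted snoRNA genes (17.8%) and 37.9% of other genes. In the whole relaxed lists the share was 45.5%, 86.4% and 72.7% in replicates 1, 2 and 3, against 33.1%, 44.3% and 40.8% of other genes, a difference of 28.8 ± 15.1 percentage points (SD, n = 3; exact sign-flip permutation p = 0.25, the smallest possible). Against hosted snoRNA genes, with 10.5%, 20.6% and 19.4%, the difference was 51.3 ± 15.5 points (SD, n = 3; exact sign-flip permutation p = 0.25). In replicate 1 the count was 10 of 22, in replicate 2 19 of 22 and in replicate 3 16 of 22. The excess over other genes depended on the weaker peaks of these lists. With the 8424 strongest peaks of each replicate, hostless genes had 9.09%, 31.8% and 13.6%, against 17.3%, 21.8% and 20.2% of other genes. Only replicate 2 was higher there. Hosted snoRNA genes had 4.86%, 8.5% and 7.69%. tRNA genes, which also have short units of their own, had a summit in the pooled relaxed list in 168 of 290 cases (57.9%), and snRNA genes in 12 of 32 (37.5%).

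These summits were weak. Their median rank in the pooled relaxed list was 14278, their median signal 50.5, and 5 of 22 genes had an IDR summit (22.7%), against 19.4% of other genes. The 20 genes shared 16 distinct summits. The summits of 4 genes lay within 500 bp of a coding or ncRNA TSS and those of 3 within 500 bp of a tRNA gene start. snoRNA:Or-CD13 was the strongest, with a pooled signal of 197 and replicate signals of 48.2, 67.5 and 75.5, from a summit 487 bp after its start. It lies on the strand opposite to egr, within that gene. snoRNA:185, a gene of 55 bases with no class in its name, had 119, with 23.0, 57.4 and 46.3, and its summit was 234 bp from the start of tRNA:Glu-TTC-1-5. The 23.0 of replicate 1 is that of another summit. The replicate 1 summit closest to the one of the pool, 106 bp from it, had 14.1 at rank 11699. snoRNA:Psi28S-1153 and 2 neighbours with no class in their names share 1 summit, with a pooled signal of 95.1 at rank 8311, which was 382 bp from a TSS of CG13334. Replicate 1 had no summit there, and replicates 2 and 3 had 55.6 and 27.4.

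U3, the C/D RNA of early ribosomal RNA cleavage, has 3 genes here, all without a host and without an IDR summit. snoRNA:U3:9B had replicate signals of 13.4, 18.2 and 17.6, at ranks from 12283 to 18631. snoRNA:U3:54Ab had no summit in replicate 1, and 33.8 and 15.7 in replicates 2 and 3, with its pooled summit 48 bp from a tRNA gene start. snoRNA:U3:54Aa was listed in replicate 2 alone, with 14.4. Of the 32-mers in the 500 bp on either side of the starts of U3:54Aa and U3:54Ab, 52.5% and 52.2% occurred once in the genome, and none of those inside the genes did. How such reads were counted is not given in the sources used here. snoRNA:Psi18S-301 was the strongest hostless member outside the IDR list, with a pooled signal of 91.4, no summit in replicate 1, and 67.0 and 22.9 in replicates 2 and 3. It was chosen after its values were seen.

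**Figure D5:**
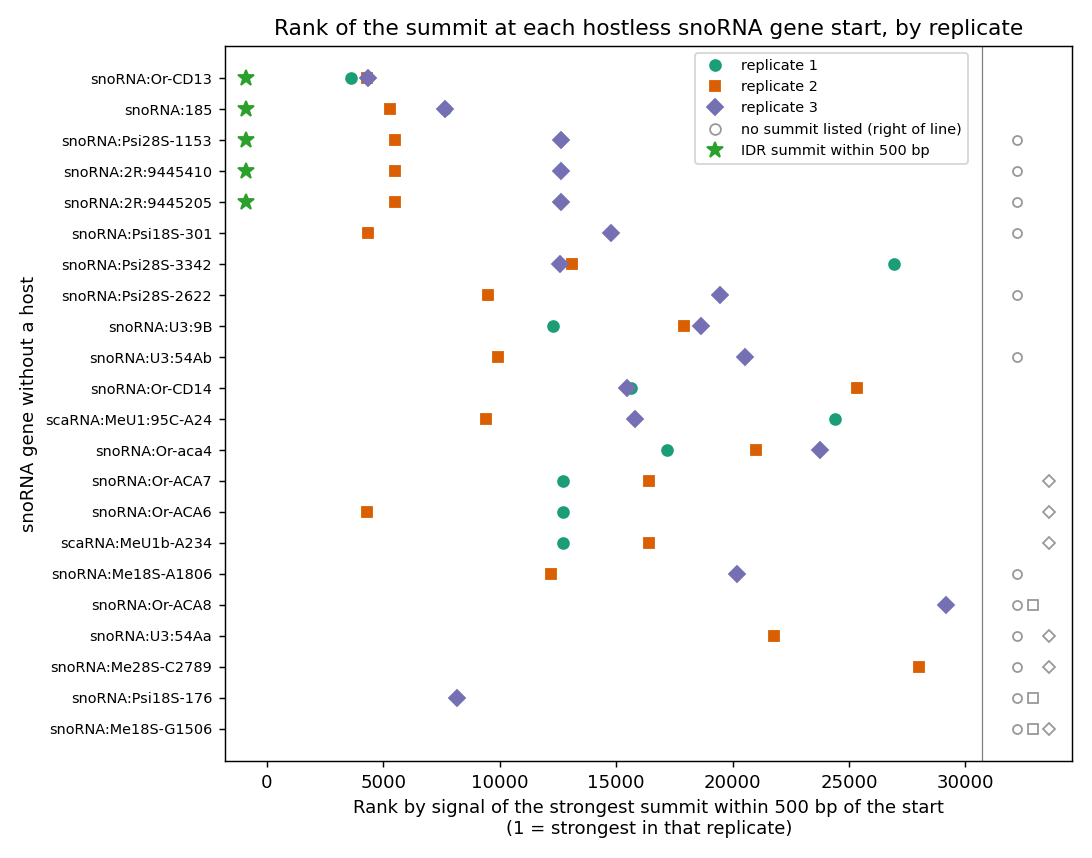
Rank by signal of the strongest summit within 500 bp of the start in each replicate (horizontal axis, 1 is the strongest of 30000) for the 22 snoRNA genes without a host; open symbols right of the line mark replicates with no listed summit, and stars mark an IDR summit. Or-CD13 has ranks of 3618, 4315 and 4363, while 12 of the 22 have no summit in replicate 1.

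Letters of core promoter motifs were counted at host gene starts. The DNA replication-related element (DRE) TATCGATA is a motif of housekeeping promoters, and TCTTT or CTTTT at the TSS make a pyrimidine-rich initiator known from ribosomal protein genes. Within 100 bp of the gene start on either strand, TATCGATA stood at 17 of 92 hosts (18.5%), against 6.45% of other protein-coding and ncRNA genes, and its core ATCGAT, which every such DRE also holds, at 35.9% against 16.4%. Of ribosomal protein hosts 28.6% had TATCGATA and 28.6% ATCGAT, against 29.2% and 43.1% of ribosomal protein genes that are no hosts. Among other genes with an IDR summit near the start the shares were 10.6% and 23.1%. ATCGAT stood at 21 of 56 hosts with an IDR summit (37.5%) and 12 of 36 hosts without one (33.3%). The initiator letters, read on the sense strand with the first base within 10 bp of the gene start, stood at 22.8% of hosts, against 5.91% of other genes. They stood at 17 of 56 hosts with an IDR summit (30.4%) and 4 of 36 hosts without one (11.1%). Of ribosomal protein hosts 12 of 28 (42.9%) had them, against 31 of 65 ribosomal protein genes that are no hosts (47.7%). Of the other hosts 9 of 64 (14.1%) had them. The 56 hosts with an IDR summit include 26 of the 28 ribosomal protein hosts, so the 2 groups of hosts differ in class. GTCACACT, the motif 1 core, stood at 9.78% of hosts, against 4.73% of other genes. GAGAG (20.7% against 22.3%), CAACACTG, the motif 7 core (4.35% against 2.4%), and the E-box CAGCTG (7.61% against 12.7%) were the other letters searched. Within 100 bp of the strongest summit at the 56 occupied hosts, ATCGAT was found in 28.6% and TATCGATA in 14.3%, against 14.3% and 5.93% of other IDR summits within 500 bp of a TSS. These are matches of letters and no test was made on them.

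Starts of hosts are shown with 100 bases before and 50 after the gene start, which is base 101, and with matches to any of these motifs in capitals. The initiator letters are in capitals only where their first base is within 10 bp of the gene start on the sense strand. On arms 2L, 3L, 3R and X, RpL14 and RpL28 had the strongest IDR summits of ribosomal protein hosts, and Stt3A and CG1142 those of other hosts. RpS7 holds a DRE and a further ATCGAT, and RpS5a and Arpc2 hold the most snoRNA genes of the printed hosts with and without an IDR summit. The stretches are chr3L:8600906-8601056 (plus strand), chr3L:3222910-3223060 (minus strand), chrX:21053887-21054037 (minus strand), chr3R:7473731-7473881 (minus strand), chr3R:30208970-30209120 (minus strand), chrX:17148214-17148364 (minus strand) and chr2L:20416957-20417107 (plus strand), in the order of the lines. The Arpc2 stretch has no match under these limits, though it holds TCTTT farther from the gene start.
RpL14: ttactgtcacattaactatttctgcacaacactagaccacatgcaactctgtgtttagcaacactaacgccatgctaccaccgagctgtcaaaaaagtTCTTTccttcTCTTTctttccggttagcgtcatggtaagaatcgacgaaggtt
RpL28: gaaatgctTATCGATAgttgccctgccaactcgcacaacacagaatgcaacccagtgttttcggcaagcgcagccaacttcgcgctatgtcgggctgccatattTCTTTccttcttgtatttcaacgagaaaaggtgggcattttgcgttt
Stt3A: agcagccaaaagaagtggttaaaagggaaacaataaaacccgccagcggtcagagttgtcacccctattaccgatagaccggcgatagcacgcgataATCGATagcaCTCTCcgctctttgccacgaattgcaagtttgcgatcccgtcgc
CG1142: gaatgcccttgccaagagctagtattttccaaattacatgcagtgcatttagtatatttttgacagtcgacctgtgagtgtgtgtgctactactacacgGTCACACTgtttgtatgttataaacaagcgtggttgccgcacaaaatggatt
RpS7: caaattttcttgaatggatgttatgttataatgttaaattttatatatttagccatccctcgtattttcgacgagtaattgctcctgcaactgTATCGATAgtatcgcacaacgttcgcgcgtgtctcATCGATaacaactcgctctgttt
RpS5a: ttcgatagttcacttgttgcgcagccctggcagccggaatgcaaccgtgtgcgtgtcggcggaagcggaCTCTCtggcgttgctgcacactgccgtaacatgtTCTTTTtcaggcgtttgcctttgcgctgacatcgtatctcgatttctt
Arpc2: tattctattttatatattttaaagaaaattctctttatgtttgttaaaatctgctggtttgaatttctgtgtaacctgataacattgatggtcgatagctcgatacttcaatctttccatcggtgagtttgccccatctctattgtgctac

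Genes that encode snoRNA particles and their assembly factors had IDR summits about as often as all protein-coding genes and pooled relaxed summits more often. Of 24 genes in the list 23 were matched, and at 6 of them (26.1%) the IDR list had a summit in a TSS window, against 24.3% of all protein-coding genes. In the pooled relaxed list 14 of 23 had one (60.9%), against 42.5% of all protein-coding genes. No test was made on these counts. Of the 4 C/D core proteins, Nop56 was occupied, with an IDR signal of 125, no summit in replicate 1, and 52.4 and 53.6 in replicates 2 and 3, while Fib (fibrillarin, the methyltransferase), nop5 and hoip were not. None of the 4 H/ACA core genes, Nop60B, Gar1, NHP2 and Nop10, was. NHP2 nevertheless had replicate signals of 81.0, 114 and 142, at ranks from 1899 to 2019 and 197 to 221 bp from its TSS, and the pooled relaxed list had no summit closer than 3054 bp. Of 7 assembly factors 3 were occupied. The AAA ATPases pont and rept had IDR signals of 405 and 279.7, with 99.1, 129.9 and 177 for pont and 60.0, 109.8 and 111 for rept. Nufip had 138, with 34.0, 59.4 and 46.5. Of the other 8, Nopp140, a nucleolar and Cajal body phosphoprotein, had 187, with 51.6, 57.4 and 68.5, and La, which binds the 3' ends of RNA polymerase III transcripts, had 176, with 48.5, 41.9 and 86.3. Fib, nop5 and Nop60B are themselves hosts.

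At the edge of the window, the 3 occupied snoRNA starts farthest from their IDR summit were those of snoRNA:Or-CD11a, snoRNA:Or-CD13 and snoRNA:U49:66Da, at 478, 487 and 500 bp. The closest starts outside it were those of snoRNA:Or-ACA6, at 510 bp, and snoRNA:Me18S-G1620, at 527 bp, and the next lay at 539 bp. Among hosts the farthest of the closest summits inside the window were at 343 bp for Msp300, 365 bp for skd and 407 bp for Stt3A, and the closest outside were at 771 bp for CG3902, 1182 bp for Rbfox1 and 1366 bp for lncRNA:CR42491. The summit closest to lncRNA:CR42491 is the one at the TSS of RpL22, within which it lies. Repeated sequence touched few windows. In 253 of 269 snoRNA windows at least 90% of the 32-mers occurred once in the genome, all 92 host TSS windows passed that mark, and among the 253 the IDR share was 8.7%.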

How the data were processed

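ChIP-seq peak lists of 3 replicates (topi-eGFP white prepupae, anti-GFP) were used. Per the text files the authors deposited with the samples, relaxed peaks were called on dm6 in each replicate and in their pool against 1 control alignment, and an IDR-filtered list was derived from them. The sources used here name no aligner, caller, version or threshold. The deposited signal value is the authors' enrichment score per peak; it has no common scale across libraries and served to rank, filter and describe peaks. Lists stop at 30000 peaks and hold no read counts, so depth is unknown. The dm3 lists were not used here.

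Gene models and TSSs were those of Ensembl release 115 for that assembly, whose chromosomes hold all peaks. Summits, as 1-based positions, were joined to starts and TSSs within 500 bp. The host was the shortest spanning gene on the same strand; 11 snoRNA genes had a further one. Sequences were read from the RefSeq dm6 genome by coordinates. Shares were counted per list and, for replicates, with the strongest 8424 peaks; their differences over 3 replicates were tested with an exact two-sided sign-flip permutation test. Nothing beyond biological replicate numbers says how the replicates were collected, so the p-values cover these libraries alone. They do not measure the spread between them. Where all 3 differences have the same sign, the sign-flip permutation p is 0.25 whatever their sizes.

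Named genes were the 10 hosts and the 10 snoRNA genes with the strongest IDR summits, the 8 hosts with the most snoRNA genes (10 with ties), hosts with 3 or more members and no IDR summit (strongest relaxed ones), occupied members away from a host TSS or without a host, genes at the edge of the window, and occupied genes of the snoRNP list. Others were chosen after their values were seen. Members and lists were chosen with earlier results of these data known. Alternatives were other windows, peak sets, host and TSS definitions and members, and each replicate left out. The tools were pandas 2.3.3 and numpy 2.4.6 in Python 3.11.15, with matplotlib 3.10.9 and scipy 1.17.1, and the joins were tested on simulated data.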

Additional observations from a re-analysis of the deposited data

How the results depend on the processing

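The share of snoRNA starts with an IDR summit (8.55%) kept its place under 5 of 10 alternatives and moved under the others. The comparison share (19.4%) did not always move with it. Counting summits near any base of the gene gave 8.92% of snoRNA genes against 28.5% of other genes. The snoRNA share was 2.6% against 13.2% of other genes within 200 bp and 24.2% against 24.4% within 1000 bp. With the 4212 strongest IDR peaks it was 3.72% against 10.5%. IDR peaks supported by the other 2 replicates, leaving out each replicate in turn, gave 4.83% to 5.95%, against 12.5% to 15.5%. The pooled relaxed share (23.8%) was 9.29% within 200 bp, 44.6% within 1000 bp, 16.7% with the stronger part of that list (by signal, above its median) and 32.1% with 1 snoRNA gene per host or cluster, against 26.3%, 45.2%, 28.7% and 37.9% of other genes. The mean difference over replicates stayed negative under all 7 alternatives, from -18.3 points with whole relaxed lists to -1.69 within 1000 bp, where 2 of 3 replicates were lower and the exact sign-flip permutation p was 0.5, and ran from -12.1 to -11.7 points leaving out each replicate in turn. The share of hosts with an IDR summit (60.9%) was 40.2% with the 4212 strongest IDR peaks, against 12.3% of other genes, and 45.7% to 53.3% leaving out each replicate in turn, against 14.5% to 17.8%. The share of occupied snoRNA genes with the summit at a host TSS (69.6%) was 90% with the 4212 strongest IDR peaks and 84.6% to 87.5% leaving out each replicate in turn, over 13 to 16 genes. No paired analysis was possible because the series has 1 group, so no replicate number is shared between groups; the sign-flip tests take differences between gene groups within each replicate. Shares over few genes, weak relaxed peaks, the missing read depth and the lack of an untagged control limit what these counts can show.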

Other observations

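Several peaks that every replicate listed were absent from the merged lists. Of 43 hosts with a summit among the strongest 8424 of all 3 replicates, 1, RpL36A, had none in the pooled relaxed list (2.33%), and of 2488 other protein-coding and ncRNA genes 41 had none (1.65%). NHP2, an H/ACA core gene outside the hosts, was of the same kind. The summits of the replicates lay 8 to 28 bp from the closest TSS at RpL36A and 197 to 221 bp from it at NHP2.

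IDR summits inside host genes but over 500 bp from every TSS numbered 44, in 12 of the 92 hosts. snoRNA:hts-a starts within 500 bp of such a summit, in hts. The summit near snoRNA:Or-CD4 is past the end of Uhg5 and is not among the 44.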
